A study of Mus musculus with 9 samples.

Results

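The AP-1 family of transcription factors was examined in mouse liver together with Atf3, a close relative that pairs with the same proteins. The 8 genes were chosen by symbol and were 8 of the 21870 genes in the deposited mRNA table: the Fos family (Fos, Fosb, Fosl1 and Fosl2), the Jun family (Jun, Junb and Jund) and Atf3. The livers came from wild-type C57 BL6 mice, 8 weeks old and 20 g on average, in 3 groups of 3 libraries, and all were collected 6 h after the APAP or saline injection. The dmPGE2+APAP mice were given dmPGE2, a long-lived form of prostaglandin E2, into the peritoneum 1 h before APAP, at 300 μg/kg. Both treated groups received APAP (acetaminophen, a painkiller that injures the liver in overdose) at 500 mg/kg by the same route, the APAP group without dmPGE2. The control group received saline. The design has no group given dmPGE2 alone, so the action of dmPGE2 can be read only on top of APAP.

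AP-1 proteins carry a basic region that grips DNA and a leucine zipper that joins them in pairs. Fos proteins need a Jun partner, whereas Jun proteins can also pair among themselves or with ATF proteins, and JUND and ATF3 can each restrain transcription in some settings. Fos, Jun and Atf3 are immediate early genes: their transcription starts within minutes of growth factor or stress signals, through MAP kinases and transcription factors already present in the cell. In mouse liver, the kinase JNK and its substrate JUN are studied in acetaminophen injury, since JNK acts on mitochondria in poisoned hepatocytes.

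The liver label was checked against hepatocyte markers: all 10 hepatocyte genes examined were above 0 in every library, and their summed level was 44055.3 to 48149.2 FPKM in dmPGE2+APAP livers, 41814.1 to 49189.5 FPKM in APAP livers and 36634.5 to 39324.8 FPKM in control livers. FPKM are read numbers scaled to transcript length and library size, so levels can be set side by side between genes. The values of the whole table summed to between 371958 and 393938 FPKM per library. The number of reads behind a value is unknown. In the first principal components of the tested genes (51.1% and 12.7% of the variance), control replicate 3 lay apart from the other controls on the second (-32.5 against 15.5 and 16.2). In whole liver, fewer cells of a type and less RNA per cell cannot be told apart.

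The promoters were compared for short sequences that some of these genes share. RefSeq (GRCm38.p6) had a promoter for 7 of the 8 genes, all but Fosl1, and the 120 bases before each RefSeq transcription start were searched on both strands. The motifs were the cyclic AMP response element TGACGTCA and its core TGACG, which reads CGTCA on the other strand, the AP-1 element TGACTCA, the element TGACATCA known from the Jun promoter, the TATA box TATAAA and the CArG box bound by serum response factor. TGACG is part of TGACGTCA. The core TGACG was found in the windows of Fos, Fosb, Junb and Atf3, and in 11.7% of 32851 promoter windows of the same length. These 4 stretches are shown because they share it, with TGACG or CGTCA in capitals and, in Fos, also TATAAA. They lie at chr12:85473770-85473889 (plus strand) for Fos, chr7:19310046-19310165 (minus) for Fosb, chr8:84978749-84978868 (minus) for Junb and chr1:191183334-191183453 (minus) for Atf3.
Fos: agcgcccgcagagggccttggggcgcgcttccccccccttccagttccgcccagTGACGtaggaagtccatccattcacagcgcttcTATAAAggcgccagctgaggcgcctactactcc
Fosb: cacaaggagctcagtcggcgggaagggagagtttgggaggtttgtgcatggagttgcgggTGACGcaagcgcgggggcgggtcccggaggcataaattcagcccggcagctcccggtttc
Junb: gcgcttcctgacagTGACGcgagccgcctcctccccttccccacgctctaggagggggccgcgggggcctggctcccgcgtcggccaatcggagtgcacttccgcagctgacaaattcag
Atf3: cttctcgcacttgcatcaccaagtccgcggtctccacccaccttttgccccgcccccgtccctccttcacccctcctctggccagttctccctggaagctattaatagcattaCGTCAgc

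TATAAA was matched in the Fos window, 33 to 28 bases before the start, and in 6.34% of all windows. The stretch of Jun (chr4:95052223-95052342, minus strand) is shown for its TGACATCA, in capitals, 45 to 38 bases before the start, a match that 2.1% of all windows hold. That of Jund (chr8:70697619-70697738, plus strand) is shown as one of the 2 windows, with that of Fosl2, in which none of the motifs was matched. The RefSeq starts of Fos and Jun equal the deposited ones. Those of Jund and Junb lie 1210 and 30 bases upstream, and those of Atf3, Fosl2 and Fosb 34706, 671 and 6 bases downstream, so the Atf3 window stands for an inner start of that gene. The Jund and Fosl2 windows likewise do not adjoin the deposited starts. The lack of matches in them does not describe the bases before those starts. The full TGACGTCA (1.24% of all windows), TGACTCA (2.3%) and the CArG box (0.749%) were matched in none of the 7 windows. A match is a description of letters and was not linked to binding by any measurement here.
Jun: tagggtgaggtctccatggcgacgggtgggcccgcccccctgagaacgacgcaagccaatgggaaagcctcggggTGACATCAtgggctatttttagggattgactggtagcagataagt
Jund: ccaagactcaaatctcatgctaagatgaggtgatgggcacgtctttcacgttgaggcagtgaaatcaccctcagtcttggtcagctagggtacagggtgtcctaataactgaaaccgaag

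Fos was the Fos family gene with the largest difference between treated and control livers. Fos, the partner that gives AP-1 its classical inducible form (ENSMUSG00000021250, GRCm38 chromosome 12, 85473890 to 85477273, plus strand, 4 exons), was at 76.3, 32.4 and 23.1 FPKM in dmPGE2+APAP replicates 1 to 3, at 65.0, 50.9 and 76.7 FPKM in APAP livers and at 0.352, 0.385 and 0.772 FPKM in control livers. Every treated library lay far above every control library, and dmPGE2+APAP replicate 1 stood with the APAP livers while the other two of its group were below them. Fos rose 118-fold in APAP livers relative to control livers (95% interval 62.6 to 222; limma adjusted p = 2.87e-05). In dmPGE2+APAP livers it rose 73.2-fold relative to the same controls (95% interval 38.9 to 138; limma adjusted p = 5.92e-05). These folds are of scaled FPKM with 0.1 added, which understates the change of a gene this low in the controls: with 1 added the log2 fold change of APAP over control was 5.49 and with 0.01 added it was 7.15, against 6.88. An adjusted p is from limma with Benjamini-Hochberg adjustment over all 11557 genes tested, and a gene is called where it is under 0.05.

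**Figure D1:**
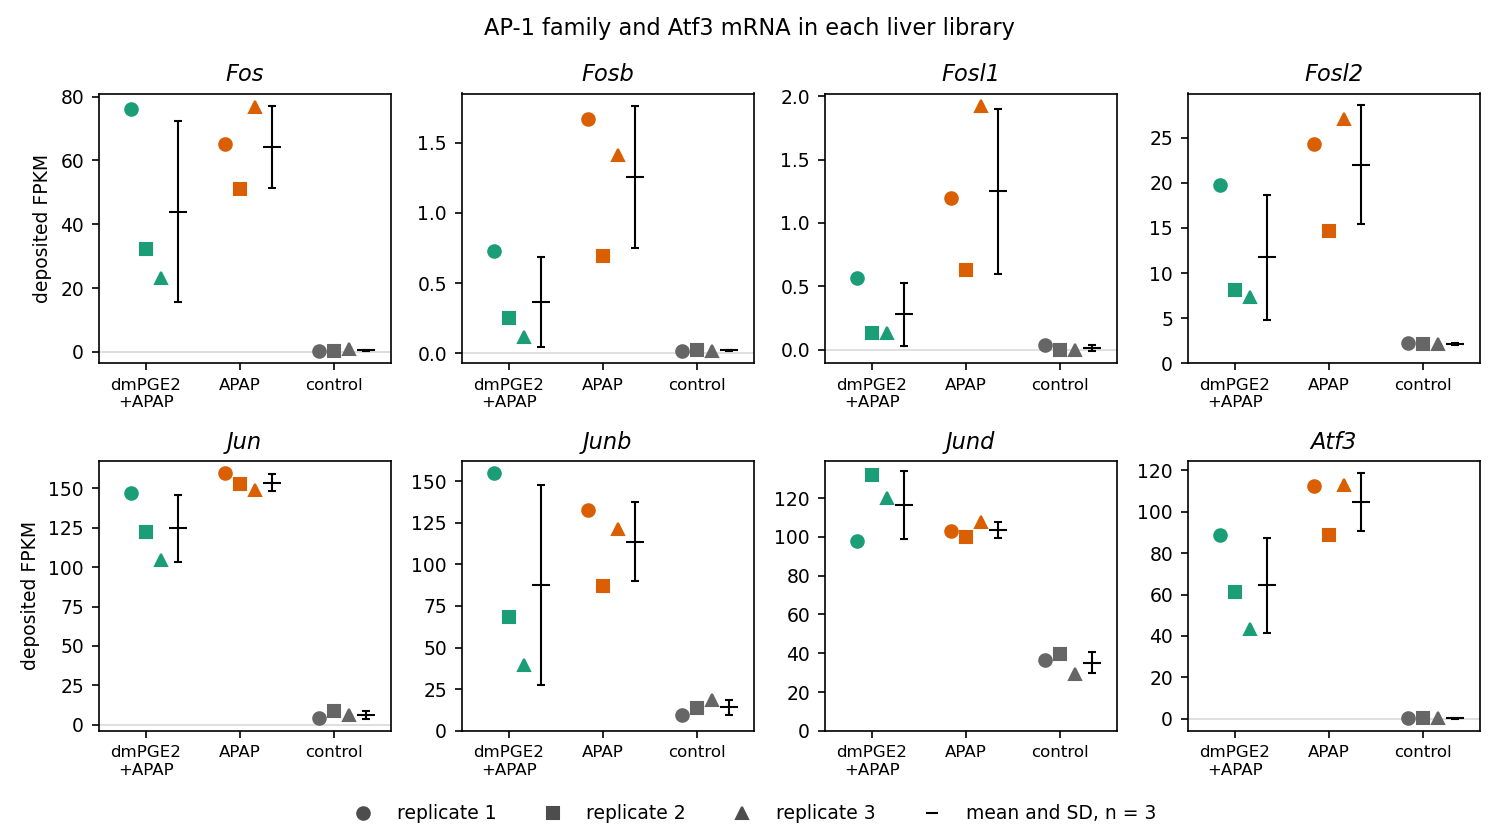
Deposited FPKM (y axes, linear, a separate scale for each gene) of the 8 genes in dmPGE2+APAP, APAP and control livers; symbols mark replicates 1 to 3, and the bars give the mean and SD of 3 libraries. For each gene the treated livers lie above the controls, and dmPGE2+APAP replicate 1 is the highest of its group for 7 of the 8 genes.

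Fosl2, whose protein FRA-2 lacks the strong activating end of FOS, was the main Fos family transcript of the uninjured liver. Fosl2 (ENSMUSG00000029135, chromosome 5, 32135801 to 32157842, plus strand) was at 19.7, 8.18 and 7.35 FPKM in dmPGE2+APAP livers, at 24.3, 14.6 and 27.1 FPKM in APAP livers and at 2.28, 2.11 and 2.10 FPKM in control livers. The 3 controls were nearly equal, the treated livers were all higher, and the 2 treated groups overlapped through dmPGE2+APAP replicate 1 and APAP replicate 2. Fosl2 rose 10.2-fold in APAP livers (adjusted p = 0.000433) and 5.19-fold in dmPGE2+APAP livers (adjusted p = 0.00296), both relative to control and by limma.

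Fosb and Fosl1 stayed at low levels even where they rose. Fosb, which encodes a Fos protein with a truncated isoform known from brain (ENSMUSG00000003545, chromosome 7, 19302696 to 19310051, minus strand), was at 0.725, 0.250 and 0.113 FPKM in dmPGE2+APAP livers, at 1.67, 0.690 and 1.41 FPKM in APAP livers and at 0.0162, 0.0236 and 0.0186 FPKM in control livers. Fosl1, which encodes FRA-1 (ENSMUSG00000024912, chromosome 19, 5447547 to 5455946, plus strand), was at 0.568, 0.133 and 0.136 FPKM in dmPGE2+APAP livers, at 1.20, 0.626 and 1.92 FPKM in APAP livers and at 0.0387, 0 and 0 FPKM in control livers. For both genes the treated libraries were above the controls, and dmPGE2+APAP replicate 1 was again the highest of its group. Fosb passed in APAP livers (log2 fold change 3.46 ± 0.485 SE, adjusted p = 0.00181) and in dmPGE2+APAP livers (1.78 ± 0.485, adjusted p = 0.0373) relative to control. The call in dmPGE2+APAP livers was lost in 8 of 14 alternative analyses, with adjusted p up to 0.186. Fosl1 passed in APAP livers (3.50 ± 0.489, adjusted p = 0.00179) and missed the threshold in dmPGE2+APAP livers (1.62 ± 0.489, limma adjusted p = 0.0530).

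The size of the Fosb and Fosl1 differences depends on the added constant. Between an added 1 and an added 0.01 FPKM, the log2 fold change of APAP over control ran from 1.13 to 5.42 for Fosb and from 1.12 to 6.11 for Fosl1. Both genes reached the testing filter (0.5 FPKM in at least 3 libraries) only through treated livers, in 3 APAP libraries and 1 dmPGE2+APAP library. Fos and Atf3 reached 0.5 FPKM in 1 control library each, and Fosl2, Jun, Junb and Jund did so in all 9 libraries. A gene that passes the filter through the group where it is high had to differ, so the count of calls over the 8 genes is a description; without the filter all 8 were also called in APAP livers.

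Among the Jun family genes, Jun changed most and Jund least, and Jund was the most abundant of the 8 genes in the uninjured liver. Jun, the founding AP-1 subunit and a substrate of JNK (ENSMUSG00000052684, chromosome 4, 95049034 to 95052222, minus strand, 1 exon), was at 147, 123 and 105 FPKM in dmPGE2+APAP livers, at 160, 153 and 149 FPKM in APAP livers and at 4.0, 8.53 and 6.02 FPKM in control livers. The APAP livers were nearly equal, each dmPGE2+APAP liver was below every APAP liver, and the controls were far below both. Jun rose 27.6-fold in APAP livers (95% interval 19.0 to 40.2, adjusted p = 9.19e-06) and 22.7-fold in dmPGE2+APAP livers (adjusted p = 1.64e-05) relative to control, by limma.

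Junb, whose protein can oppose JUN on some promoters (ENSMUSG00000052837, chromosome 8, 84974484 to 84978718, minus strand, 1 exon), was at 155, 68.1 and 39.8 FPKM in dmPGE2+APAP livers, at 133, 87.1 and 121 FPKM in APAP livers and at 9.69, 13.7 and 18.8 FPKM in control livers. Within the dmPGE2+APAP group, replicate 1 held the highest Junb value of the 9 libraries and replicate 3 the lowest of the 6 treated ones. Junb rose 8.87-fold in APAP livers (adjusted p = 0.00165) and 6.06-fold in dmPGE2+APAP livers (adjusted p = 0.00492) relative to control, by limma.

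Jund, the Jun gene that many resting tissues express (ENSMUSG00000071076, chromosome 8, 70698949 to 70700616, plus strand, 1 exon), was at 97.7, 132 and 120 FPKM in dmPGE2+APAP livers, at 103, 99.96 and 108 FPKM in APAP livers and at 36.7, 39.6 and 29.4 FPKM in control livers. The treated groups overlapped, and here dmPGE2+APAP replicate 1 was the lowest of the treated livers, not the highest of its group. Jund rose 3.20-fold in APAP livers (95% interval 2.53 to 4.04, adjusted p = 0.000212) and 3.64-fold in dmPGE2+APAP livers (adjusted p = 0.000148) relative to control, by limma.

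Atf3, a stress-induced factor of the ATF/CREB family that can pair with JUN, was nearly silent in control livers and among the most abundant of the 8 transcripts after APAP. Atf3 (ENSMUSG00000026628, chromosome 1, 191170296 to 191218039, minus strand) was at 88.6, 61.2 and 43.3 FPKM in dmPGE2+APAP livers, at 112, 88.6 and 113 FPKM in APAP livers and at 0.284, 0.235 and 0.599 FPKM in control livers. The treated groups touched at dmPGE2+APAP replicate 1 and APAP replicate 2, and the controls lay far below. Atf3 rose 248-fold in APAP livers (95% interval 156 to 394, adjusted p = 1.91e-06) and 150-fold in dmPGE2+APAP livers (adjusted p = 4.71e-06) relative to control, by limma. With 1 in place of 0.1 FPKM added, the log2 fold change of APAP over control was 6.32, against 7.95.

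In APAP livers relative to control livers, 8 of the 8 genes were called and all 8 were higher, where 20.9% of the 11557 genes tested were called in either direction 11% higher and 9.88% lower. Their median log2 fold change was 3.48, against -0.03 over all genes tested, and Atf3, Fos and Jun ranked 1, 2 and 19 from the top. In dmPGE2+APAP livers relative to control, 7 of the 8 were called higher, where 16.3% of genes were called in either direction 8.7% higher and 7.59% lower, with a median of 2.49 against 0.00 over all genes. The ranges of the treated and control libraries did not overlap for any of the 8 genes in either comparison, with treated livers higher. Over all genes tested the ranges were separate for 43.6% in APAP and 42.4% in dmPGE2+APAP livers relative to control, and separate with treated livers higher for 12.9% and 11.3%. The 2 comparisons share the 3 control libraries. Leaving out each library in turn, control replicate 3 included, left the number called at 8 in APAP livers and at 6 to 7 in dmPGE2+APAP livers.

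**Figure D2:**
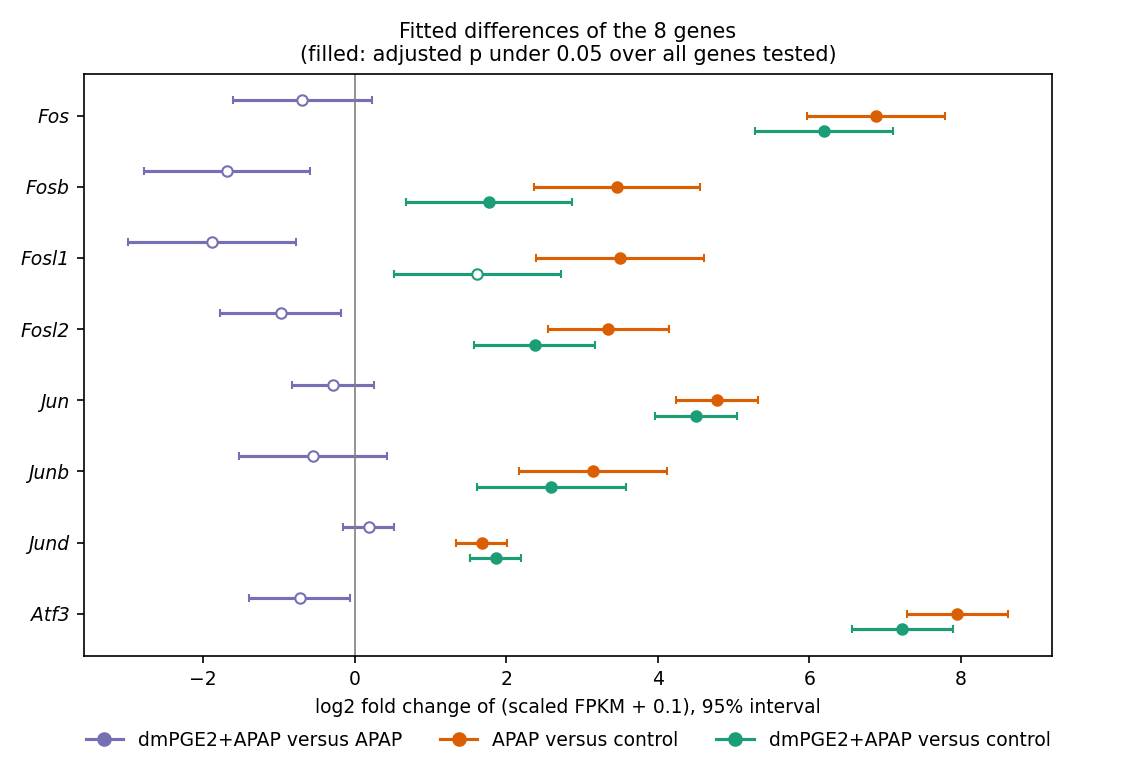
Log2 fold changes of scaled FPKM with 0.1 added (x axis) for each gene in dmPGE2+APAP versus APAP, APAP versus control and dmPGE2+APAP versus control; points are limma estimates, bars 95% intervals and filled points an adjusted p under 0.05. Against control every estimate is above 0, while for dmPGE2+APAP versus APAP 7 of 8 are below 0 and none is filled.

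The make-up of the AP-1 and Atf3 transcripts differed between treated and control livers, described here with no test. The 8 genes together summed to 450 ± 125 FPKM in dmPGE2+APAP livers, 564 ± 60.0 FPKM in APAP livers and 58.5 ± 5.65 FPKM in control livers (SD, n = 3 each). Jund made up 27.7% ± 9.83, 18.5% ± 1.55 and 60.4% ± 8.94 of that sum in dmPGE2+APAP, APAP and control livers. Jun made up 28.3% ± 2.94, 27.4% ± 3.06 and 10.4% ± 2.86 in the same order of groups. So the uninjured liver's pool was mostly Jund, and in the treated livers no single gene held a majority.

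Atf3 took 14.1% ± 1.21 of the pool in dmPGE2+APAP livers and 18.5% ± 0.535 in APAP livers, against 0.645% ± 0.351 in control livers (SD, n = 3 each). Within the Fos family, Fos made up 77.6% ± 2.04 in dmPGE2+APAP livers and 72.8% ± 3.00 in APAP livers, against 18.4% ± 7.31 in control livers. Fosl2 was the complement, at 21.4% ± 2.20, 24.5% ± 2.35 and 80.4% ± 6.77 of the Fos family in dmPGE2+APAP, APAP and control livers. The Jun family stayed the larger share throughout, with sums of 329 ± 67.6, 371 ± 28.5 and 55.4 ± 5.81 FPKM against Fos family sums of 56.3 ± 35.8, 88.8 ± 20.4 and 2.70 ± 0.184 FPKM in dmPGE2+APAP, APAP and control livers. In dmPGE2+APAP replicate 1 Jund made up 16.7% of the pool, its lowest share among the 9 libraries.

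**Figure D3:**
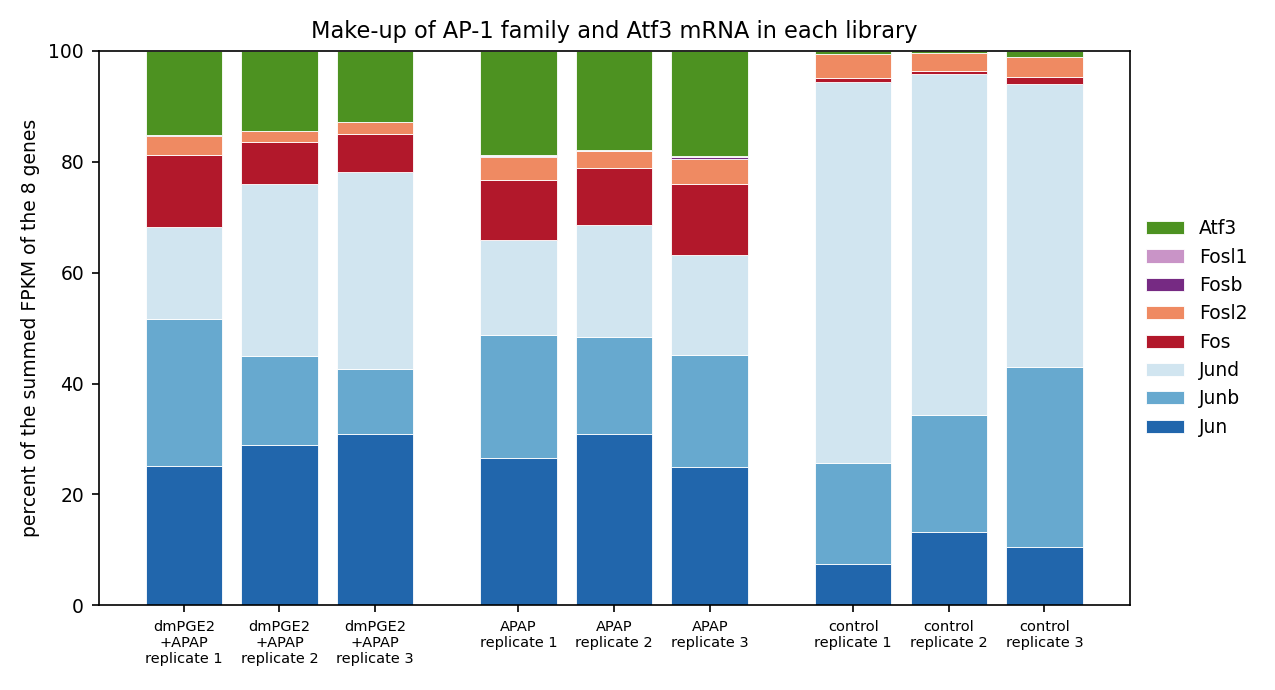
Share of each gene in the summed FPKM of the 8 genes (y axis, percent), 1 bar per library, with dmPGE2+APAP livers on the left, APAP livers in the middle and control livers on the right. Jund makes up more than any other gene in each control bar, while Atf3 and Fos are visible mainly in the treated bars.

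Whether dmPGE2 altered the response was asked by setting dmPGE2+APAP livers against APAP livers. None of the 8 genes was called by limma, nor was any of the 11557 genes tested (0%), although 1061 genes had an unadjusted p under 0.05. The estimates of 7 of the 8 genes were below 0 and that of Jund was above it, where 54.6% of all genes tested were above 0. The 8 genes share the same libraries, so their signs are not independent. Fosl1 (log2 fold change -1.88, 95% interval -2.99 to -0.78, unadjusted p = 0.00382, limma adjusted p = 0.327) and Fosb (-1.69, -2.78 to -0.59, unadjusted p = 0.00688, limma adjusted p = 0.377) had the lowest estimates. Fosl2 (-0.97, -1.77 to -0.17, adjusted p = 0.458) and Atf3 (-0.72, -1.39 to -0.06, adjusted p = 0.515) also had intervals below 0 before adjustment. The order depends on the added constant: with 1 FPKM added, Fosl2 was lowest (-0.912), then Fosl1 (-0.789), Fosb (-0.725) and Atf3 (-0.715). Fosb and Fosl1 reached 0.5 FPKM in 3 APAP libraries and 1 dmPGE2+APAP library. They thus passed the filter through APAP livers, which favours low estimates here. The intervals of Fos (-0.69, -1.60 to 0.23), Junb (-0.55, -1.53 to 0.43), Jun (-0.29, -0.83 to 0.26) and Jund (0.19, -0.15 to 0.52) included 0, with limma adjusted p of 0.632, 0.724, 0.741 and 0.726. A missed threshold does not show equal levels: the interval of Fos, for instance, spans folds from 0.329 to 1.17.

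By the libraries themselves, the ranges of dmPGE2+APAP and APAP livers were separate for Jun and Fosl1, with dmPGE2+APAP lower, and overlapped for the other 6 genes. Over all genes tested, 16% had separate ranges in this comparison and 8.93% were separate with dmPGE2+APAP lower, so 2 of 8 is not a result about these genes. The mean levels were 43.9 ± 28.4 and 64.2 ± 12.9 FPKM for Fos, 87.6 ± 60.0 and 114 ± 23.7 FPKM for Junb, and 125 ± 21.2 and 154 ± 5.54 FPKM for Jun in dmPGE2+APAP and APAP livers (SD, n = 3 each). As a percent of the mean, the SD was larger in dmPGE2+APAP than in APAP livers for each of the 8 genes. It was 64.6% against 20.1% for Fos, 88.5% against 40.3% for Fosb and 89.6% against 52.1% for Fosl1. In FPKM the SDs of Fosb (0.321 and 0.506) and Fosl1 (0.250 and 0.651) were smaller in dmPGE2+APAP livers, where their means were lower. The share of all tested genes with a larger spread in dmPGE2+APAP livers was not computed. The highest dmPGE2+APAP library had 3.30 times the Fos level of the lowest, where the APAP libraries spanned 1.51 times.

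Within the dmPGE2+APAP group, replicate 1 was the highest for Fos, Fosb, Fosl1, Fosl2, Jun, Junb and Atf3, while replicate 3 was the lowest for 6 of these 7. Without replicate 1 the log2 fold change over APAP was -1.19 for Fos (limma adjusted p = 0.153), -1.09 for Junb (0.218), -0.996 for Atf3 (0.223), -2.23 for Fosb and -2.40 for Fosl1 (both 0.0658). Fosl2 came closest to the threshold, at -1.43 (limma adjusted p = 0.0506). No member was called without that library, where 37 of the tested genes were. Without replicate 3 the estimates moved the other way, to -0.33 for Fos, -0.10 for Junb and -0.48 for Atf3. The sign of each of the 8 estimates stayed as it was in all 14 alternatives. Nothing in the labels sets replicate 1 apart, and it is kept in every value above.

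**Figure D4:**
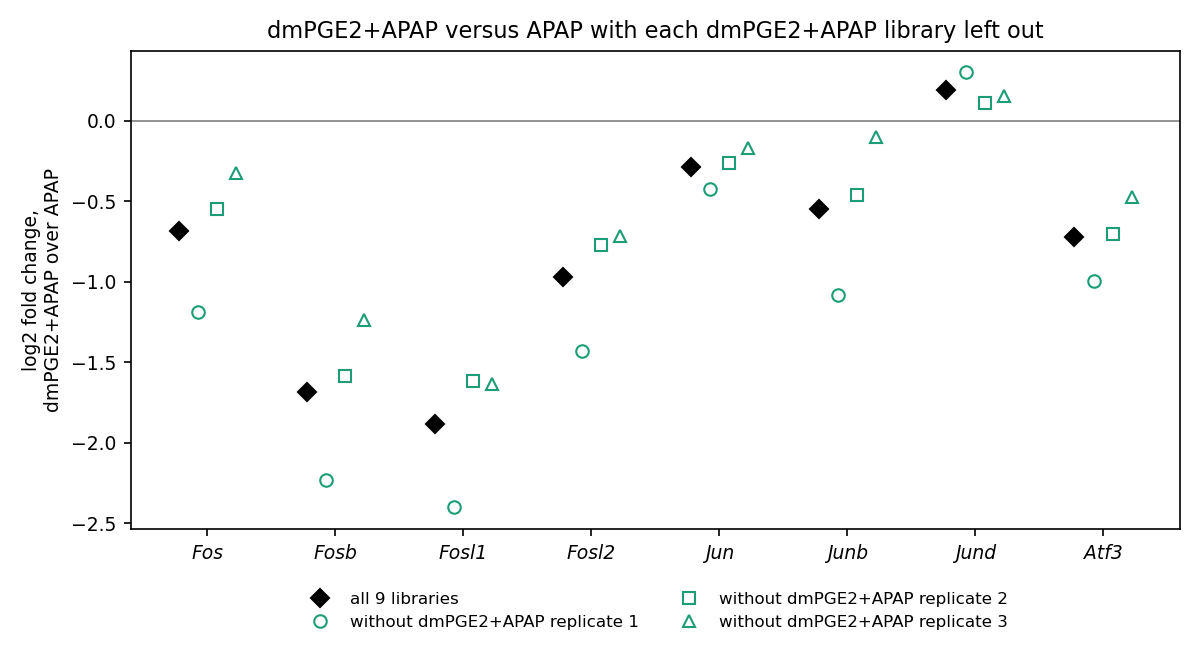
Log2 fold change of dmPGE2+APAP over APAP (y axis) for each of the 8 genes with all 9 libraries (diamonds) and with each dmPGE2+APAP library left out in turn (open symbols). Leaving out replicate 1 gives the lowest estimate for 7 genes and the highest for Jund.

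The deposited non-coding table measures other transcripts of the same loci, each as its own entry. It held 9 entries named for the 8 genes, 6 of which passed its filter of 0.1 FPKM in at least 3 libraries. In APAP livers relative to control, 4 of the 6 were called higher: Fos-203, Junb-202, Fosl1-202 and Fosl2-202. The first 3 reached 0.1 FPKM in at most 1 control library each, so they passed the filter through treated livers, where they are high, and had to differ. Over the table, 3.59% of its 22984 tested transcripts were called, 2.62% higher and 0.962% lower. Fos-203, a processed transcript with no annotated coding sequence (ENSMUST00000136122), was at 4.69, 2.87 and 0.895 FPKM in dmPGE2+APAP livers, at 2.88, 2.96 and 2.6 FPKM in APAP livers and at 0.0212, 0.0896 and 0.108 FPKM in control livers. Its treated libraries all lay above the controls, and dmPGE2+APAP replicate 1 was again high and replicate 3 low (APAP over control log2 fold change 4.07 ± 0.508 SE, limma adjusted p = 0.00549).

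Junb-202 (ENSMUST00000209372) was at 1.66, 1.07 and 0.691 FPKM in dmPGE2+APAP livers, at 1.39, 1.18 and 1.36 FPKM in APAP livers and at 0.101, 0 and 0 FPKM in control livers. It rose in APAP livers over control (log2 fold change 3.43 ± 0.377 SE, limma adjusted p = 0.00297). Fosl1-202, a retained intron form (ENSMUST00000235958), was at 0.166, 0.115 and 0.0969 FPKM in dmPGE2+APAP livers and at 0.442, 0.374 and 0.863 FPKM in APAP livers, and is listed at 0 in all 3 control livers. As in the mRNA table, its APAP livers were all above its dmPGE2+APAP livers. Its limma adjusted p of APAP against control was 0.00378, for an entry that reached the filter in treated libraries alone, and no fold is given against a group listed at 0. The retained intron form Fosl2-202 passed as well, with a log2 fold change of 2.31 (limma adjusted p = 0.0216), a call lost in 5 of 10 alternatives.

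In dmPGE2+APAP livers relative to control, Fos-203 (log2 fold change 3.89) and Junb-202 (3.26) were called among the 6 entries, where 1.78% of transcripts were called, 1.25% higher and 0.535% lower. Relative to APAP livers none of the 6 was called in dmPGE2+APAP livers, nor was any transcript of the table (0%). Reads of an isoform entry and of its gene come from overlapping sequence, so these entries are not independent of the gene values.

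The Jund locus also holds an antisense gene. Gm11175-201 (chromosome 8, 70699538 to 70700080, minus strand) overlaps the single Jund exon and was at 27.0, 38.1 and 34.9 FPKM in dmPGE2+APAP livers, at 35.0, 31.8 and 31.0 FPKM in APAP livers and at 9.52, 11.7 and 8.65 FPKM in control livers. It was higher in treated than in control livers, as Jund was, at 25.9% to 34% of the Jund level. Again dmPGE2+APAP replicate 1 was the lowest treated library. Within APAP livers the order differed: replicate 3 had the highest Jund value and the lowest Gm11175-201 value. Its log2 fold change of APAP over control was 1.66 (limma adjusted p = 0.0106), and that of Jund was 1.68. The second entry, Gm11175-202, was at 19.2% to 26.6% of the Jund level, with a log2 fold change of 1.63 (limma adjusted p = 0.0218). The libraries mark the strand, but whether the quantification used it is not given in the sources used here, so reads of Jund and of Gm11175 cannot be told apart. These entries were picked after their values were seen.

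**Figure D5:**
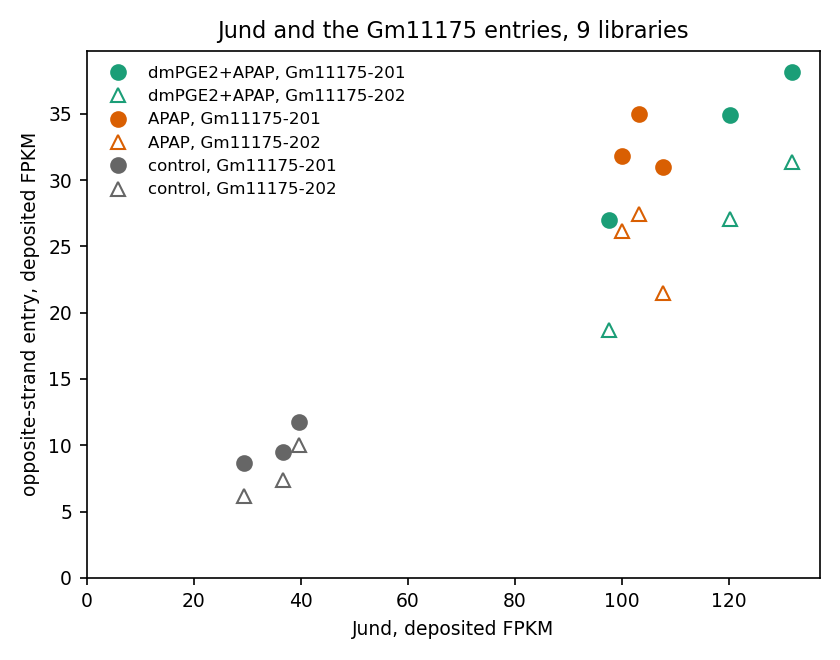
Deposited FPKM of the 2 Gm11175 entries (y axis) against that of Jund (x axis) in the 9 libraries, filled circles for Gm11175-201 and open triangles for Gm11175-202, coloured by group. Both entries lie higher in all treated livers than in all controls, as Jund does.

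Other basic leucine zipper genes, which can pair with AP-1 proteins or compete for their sites, moved in both directions. Of 34 tested (of 41 listed), 9 were called higher and 5 lower in APAP livers relative to control, where 11% of all genes were called higher and 9.88% lower; the median log2 fold change was 0.04 against -0.03 over all genes tested. Maff, a small MAF protein gene, was at 18.6, 11.1 and 9.28 FPKM in dmPGE2+APAP livers, at 29.2, 15.1 and 26.4 FPKM in APAP livers and at 1.39, 1.30 and 2.50 FPKM in control livers. Within dmPGE2+APAP livers Maff was highest in replicate 1 and lowest in replicate 3, as Fos was (APAP over control log2 fold change 3.80, limma adjusted p = 0.000189). Ddit3, the gene of the stress protein CHOP, was higher by 2.51 on the log2 scale in APAP livers (limma adjusted p = 4.03e-05) and by 2.96 in dmPGE2+APAP livers, both relative to control. The small MAF gene Mafk rose by 2.27 and the clock output gene Dbp fell by 3.35 on the log2 scale, in APAP livers. For Dbp, control replicate 3 stood at 61.8 FPKM against 19.4 and 21.2 FPKM in the other controls.

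Of 22 tested genes of kinases that feed AP-1 (of 25 listed), 3 were called higher and 1 lower in APAP livers relative to control, a share near the 20.9% called over all genes, with a median log2 fold change of -0.04. Map3k8, a kinase upstream of ERK, was at 3.18 ± 1.59 FPKM in dmPGE2+APAP livers, 4.63 ± 1.10 FPKM in APAP livers and 1.36 ± 0.129 FPKM in control livers (SD, n = 3 each; APAP over control log2 fold change 1.78, limma adjusted p = 0.0052). Map3k5, which encodes the stress kinase ASK1 upstream of JNK, rose by 0.94 on the log2 scale (limma adjusted p = 0.000387). Of 12 tested genes of factors that act on the Fos and Jun promoters (of 15 listed), 4 were called higher and 1 lower, where 11% and 9.88% of all genes were, and their median was 0.34 on the log2 scale. Srf (log2 fold change 0.80), its coactivators Mrtfb (1.03) and Mrtfa (0.88), and Elk1 were higher, and Elk3 was lower (-1.07). These are messenger levels, and the activity of the kinases was not measured here.

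Of 18 tested genes reported as AP-1 targets in other tissues (of 30 listed), 11 were called higher and 2, Mmp14 and Ccnd1, lower in APAP livers relative to control, where 11% of all genes were called higher and 9.88% lower; the median log2 fold change was 1.78 against -0.03 over all genes. In dmPGE2+APAP livers relative to control 9 were called higher and 1 lower, where 8.7% and 7.59% of all genes were, with a median of 1.11. Hmox1, which encodes the haem-degrading enzyme heme oxygenase 1, rose by 5.0 on the log2 scale (limma adjusted p = 7.07e-06), the chemokine gene Cxcl2 by 4.07 and the EGF receptor ligand gene Areg by 3.77. In control livers Cxcl2 was at 0.0297 to 0.126 FPKM and Areg at 0 to 0.0251 FPKM. Both passed the filter of 0.5 FPKM through treated livers and so had to differ, and their folds depend on the added constant. The counts of calls in this list are therefore a description. In dmPGE2+APAP livers relative to APAP livers none of the 18 was called. Of the 18, 8 had an unadjusted limma p under 0.05, as did 1061 of all 11557 genes tested. The median of the 18 was -0.48 against 0.02 over all genes, and they share the same libraries. Areg was at 0.919 to 1.81 FPKM in APAP livers and at 0.348 to 0.524 FPKM in dmPGE2+APAP livers. It thus passed the filter mainly through APAP livers, which favours a low estimate here.

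The 8 genes aside, the genes whose profile over the 9 libraries was most like that of each were found by the root mean square difference of centred log2 values, in log2 units. For Fos these were the immediate early gene Egr1 (0.405), the stress cytokine gene Gdf15 (0.436) and the nuclear receptor gene Nr4a1 (0.487), and the same 3 came nearest to Atf3 among genes outside the 8 (0.712 to 0.928), farther off than Fos itself (0.541). For Jun they were Hmox1 (0.400), the JNK phosphatase gene Dusp8 (0.404) and the growth arrest gene Gadd45a (0.468). Jund was closest to Slc25a47, a mitochondrial carrier gene of liver, at 0.128. Fosl2 was closest to Eid3 (0.118) and Junb to Apold1 (0.239). For Fosb they were Thbs1 (0.270), Tubb1 (0.30) and Eid3 (0.318), and for Fosl1 they were Nrgn (0.276), Thbs1 (0.326) and Tnfaip6 (0.363). Among the 8 genes, Fosb and Fosl1 were the closest pair (0.316), and Jund and Atf3 the farthest apart (2.81). Genes outside the 8 lay nearer than that closest pair: Thbs1 and Tubb1 to Fosb, and Nrgn to Fosl1. The measure follows size of change as well as shape, and all genes share the 9 libraries.

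Tubb1, whose profile was close to that of Fosb, encodes a tubulin of platelets and their precursors. Some of the tested blood cell markers were called higher in APAP livers than in control livers, and none was called lower. Of 6 tested erythroid and platelet markers, 4 (Ppbp, Pf4, Itga2b and Hba-a1) were called higher in APAP livers relative to control, where 11% of all genes were. Summed, the 6 markers were at 250 to 268 FPKM in dmPGE2+APAP livers and 339 to 786 FPKM in APAP livers. In control livers they were at 253 to 329 FPKM, and the APAP range overlapped neither of the others. Although the dmPGE2+APAP and control sums overlapped, 3 markers (Ppbp, Pf4 and Itga2b) were also called higher in dmPGE2+APAP livers relative to control. Over all genes, 8.7% were called higher in that comparison. None of the 6 was called in dmPGE2+APAP livers relative to APAP livers. Of 5 tested neutrophil markers, 3 (Retnlg, Csf3r and S100a8) were called higher in APAP livers, where 11% of all genes were. The 10 neutrophil markers summed to 10.3 to 18.6 FPKM in dmPGE2+APAP livers, 20.5 to 57.7 FPKM in APAP livers and 3.59 to 24.5 FPKM in control livers, with Camp at 0 in all 9 libraries. Kupffer cell markers summed to 159 to 167, 90.5 to 154 and 142 to 164 FPKM in dmPGE2+APAP, APAP and control livers, with 1 of 10, Cd68, called higher in APAP livers. That is near the 11% over all genes. Lymphocyte markers, none of which passed the filter, summed to 0.844 to 1.11, 0.582 to 0.927 and 1.31 to 1.79 FPKM in the same order of groups. Monocyte marker sums overlapped, at 5.19 to 5.79, 4.75 to 6.72 and 3.63 to 6.72 FPKM. The part of these cells in the levels of the 8 genes was not tested. Of 10 hepatocyte markers, none was called by limma in APAP livers relative to control.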

How the data were processed

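Per the labels' protocols, ribosomal RNA was removed from total liver RNA and strand-marked (dUTP) libraries were made. The submitters' processing notes list HISAT2 and GRCm38 (mm10). The quantifier, annotation release and strand setting are not given in the sources used here. The authors deposited FPKM, per the file headers, for genes (mRNA table) and for transcripts (non-coding table). The tables that the authors deposited under the name of read counts contain a score, since every non-coding score of 1000 or more equals FPKM times genomic span times a constant of 60.04 to 78.55 per library, within 1%. No count test was therefore run. The labels do not explain the name of 3 columns, which were taken as the controls, since the remaining columns carry the names of the treatments.

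FPKM were divided by an unweighted trimmed mean of log ratios (30% by ratio, 5% by abundance), 0.1 was added and log2 taken. This scaling shifted log2 differences by 0.11 for APAP versus control, 0.14 for dmPGE2+APAP versus control and 0.03 for dmPGE2+APAP versus APAP, and all fold changes are relative to it. Genes with at least 0.5 FPKM (transcripts, 0.1) in at least 3 libraries entered limma 3.58.1 in R 4.3.3 with an abundance trend, 3 group means and 6 residual degrees of freedom. Tests were two-sided with Benjamini-Hochberg adjustment over all genes or transcripts tested, and the procedure was tested on simulated data. Means and SDs are of deposited FPKM. With 3 against 3 libraries an exact test of 1 gene cannot go below p = 0.1, so calls rest on limma's pooled spread. The labels do not say that each library is a separate animal, so p-values measure the spread between these samples, which may be technical. Named genes other than the 8 are the 4 with the largest change among those called in APAP versus control in each list, the 3 nearest profiles per gene and the called non-coding entries. A gene that this rule names is not reported here. The 8 genes and the lists were chosen with earlier results of these data known. Other constants, filters, scalings, fits and each library left out were tried.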

Additional observations from a re-analysis of the deposited data

How the results depend on the processing

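The direction of each of the 8 genes was kept in all alternatives of all 3 comparisons. Which side of the threshold each fell on was also kept in all 112 gene-by-alternative results for APAP versus control, in all 112 for dmPGE2+APAP versus APAP and in 101 of 112 for dmPGE2+APAP versus control. The exceptions there were Fosb, lost in 8, and Fosl1, gained with 0.01 added (adjusted p = 0.0152), with no trend and robust variances (0.0481) and with the replicate block. The number of genes called was more sensitive. Leaving out 1 library in turn gave 1544 to 2322 in APAP versus control (2414 with all; lowest without APAP replicate 3) and 1033 to 1772 in dmPGE2+APAP versus control (1883 with all; 1033 without dmPGE2+APAP replicate 2, 1132 without its replicate 3 and 1223 without control replicate 2). In dmPGE2+APAP versus APAP it gave 0 to 37 (0 with all; 37 without dmPGE2+APAP replicate 1, 2 without APAP replicate 2 and 1 without APAP replicate 3), and a fit of those 2 groups alone called 2. Without scaling, 31.6% of 3081 calls in APAP versus control were higher, against 52.7% of 2414, and 28.5% of 2506 in dmPGE2+APAP versus control, against 53.4% of 1883. Of the non-coding entries, Fosl2-202 lost its APAP versus control call in 5 alternatives, and without dmPGE2+APAP replicate 3 the log2 differences of dmPGE2+APAP from APAP turned to 0.45 for Fos-203 and 0.10 for Junb-202 (-0.68 and -0.47 without replicate 1); the cause was not tested.

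Libraries with the same replicate number did not deviate together (correlation -0.117 to 0.0720 over 9 same-number pairs, -0.154 to 0.149 over 18 others). No pairing by number was thus seen, but a weak pairing, or one that touches few genes, could not be seen this way. With the replicate block, Fosl1 was called in dmPGE2+APAP versus control (log2 fold change 1.62, adjusted p = 0.0488), which made 8 of the 8 genes; no other call among the 8 changed. Read numbers are unknown, so the counting error of low values, such as those of Fosb and Fosl1 in control livers, could not be given.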

Other observations

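A transcript on the same strand as Jun, Gm12703-201, starts 664 bases beyond the deposited 3′ end of Jun (chromosome 4, 95029963 to 95048370). It was at 0.370, 0.156 and 0.30 FPKM in dmPGE2+APAP livers, at 0.273, 0.407 and 0.600 FPKM in APAP livers and at 0, 0.00743 and 0 FPKM in control livers. The treated libraries were all above the controls. It reached the filter of 0.1 FPKM in the 6 treated libraries and in 0 controls and so had to differ, and no test is given. It was singled out after its values were seen, from the transcripts within 10000 bases of the 8 genes.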
